A study of Homo sapiens with 4 samples.

Results

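The YAP and TEAD genes described here are 10 genes of the Hippo pathway: the coactivators YAP1 and WWTR1 (TAZ), the DNA-binding factors TEAD1 and TEAD4, the kinase LATS2, and 5 known target genes, CTGF, CYR61, ANKRD1, AMOTL2 and AXL. They were chosen by symbol in the deposited gene table, and all 10 of 10 were found among its 23615 symbols, each with a single entry. Poly-A RNA from unsorted day 14 cultures of RUES2, an established line of human embryonic stem cells, was sequenced in 4 libraries. Both groups were induced with activin A and BMP4 in the high activin A, low BMP4 condition after a CHIR-99021 pretreatment. In the CPC group, 2 biological replicates of cardiomyocytes came from cardiac progenitor cells, for which the methods describe XAV-939 at day 3 in a subset of experiments. In the ECsXAV group, 2 biological replicates came from anterior-like endothelial cells that had been patterned with VEGF, bFGF and BMP4 and were given 2 µM XAV-939 (XAV), a tankyrase inhibitor that lowers Wnt/β-catenin signaling, from day 5. Each group is 1 protocol on 1 cell line. Sample names begin differently in the 2 groups, and no source used here says what these beginnings stand for. Any effect of what they mark cannot be told apart from the effect of the group.

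In the Hippo pathway the kinases LATS1 and LATS2 phosphorylate YAP and TAZ and keep them out of the nucleus. When the kinases are less active, YAP and TAZ bind TEAD factors on DNA and raise the transcription of target genes, among them secreted matrix-associated proteins and negative regulators of the pathway itself. In the heart YAP and TEAD1 are known for their part in growth of the fetal myocardium, and TEAD factors bind MCAT elements in the promoters of many muscle genes. The pathway is controlled mostly through the location and stability of YAP and TAZ protein, which RNA levels do not measure.

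The TEAD motif lies in the promoter windows of CTGF and ANKRD1, which differed most between the groups. It also lies in windows of AMOTL2, AXL and YAP1, which did not pass the test between the groups. The windows below are the 250 bases before the transcription start, read 5′ to 3′ on the strand of the gene, from RefSeq (GRCh38.p14). Each matched a single place in GRCh37, the build of hg19 that the files use. Capitals mark the hexamer GGAATG or its reverse complement CATTCC, the core of the TEAD motif, searched on both strands. The CTGF window (chr6:132272513-132272762, minus strand) and the ANKRD1 window (chr10:92680845-92681094, minus strand) are shown because both genes passed the test between the groups, and the window at the first start of AXL (chr19:41724878-41725127, plus strand), a target whose level was similar in both groups, is shown beside them.
CTGF: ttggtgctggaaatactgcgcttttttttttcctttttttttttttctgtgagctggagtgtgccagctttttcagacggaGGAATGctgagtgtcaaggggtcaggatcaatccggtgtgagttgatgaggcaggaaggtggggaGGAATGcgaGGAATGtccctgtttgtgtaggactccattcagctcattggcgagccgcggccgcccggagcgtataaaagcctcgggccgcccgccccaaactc
ANKRD1: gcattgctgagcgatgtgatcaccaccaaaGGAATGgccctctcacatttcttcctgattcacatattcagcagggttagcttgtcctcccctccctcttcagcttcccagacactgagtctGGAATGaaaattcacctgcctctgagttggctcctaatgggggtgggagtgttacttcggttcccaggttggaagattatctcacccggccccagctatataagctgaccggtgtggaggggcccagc
AXL: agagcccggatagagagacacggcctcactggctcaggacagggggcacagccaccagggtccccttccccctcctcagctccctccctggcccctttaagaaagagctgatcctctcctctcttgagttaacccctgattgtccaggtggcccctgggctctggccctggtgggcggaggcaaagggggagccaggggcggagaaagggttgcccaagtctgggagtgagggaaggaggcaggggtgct
In CTGF the hexamer began at -169, -104 and -95 from the start site, and in ANKRD1 at -220 and -128. The AXL window shown held none. Over all 35116 windows of the same length in the RefSeq table, 11.9% held the hexamer at least once, 0.94% held it 2 or more times and 0.0826% held it 3 or more times. RefSeq windows were matched for 7 of the 10 genes, with 10 windows in all. AMOTL2 held 1 hexamer at -69 from one of its starts and none at the other, YAP1 held 1 at -162, AXL held 1 at -212 from its second start, and LATS2 and WWTR1 held none. CYR61, TEAD1 and TEAD4 were not matched. The CArG box, the element of serum response factor, was in none of the 10 windows and in 1.16% of all windows. These matches describe letters in a window and do not show binding.

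The deposited values are FPKM, fragments scaled to transcript length and to the mapped fragments of the library, so levels of different genes can be set side by side. Read counts were not used here, and the depth of each library is unknown. Relative depth was estimated as the inverse of the most frequent ratio of low FPKM, from 0.005 to 0.1, to those of the same genes in ECsXAV replicate 1. This estimate was 50.1% for ECsXAV replicate 2, 86.9% for CPC replicate 1 and 79.8% for CPC replicate 2. All 10 genes passed the filter on low values, a mean of 1 FPKM or more over the libraries, and entered the test. Log2 changes are differences of log2(FPKM + 1), the ECsXAV level subtracted from the CPC level, and are negative where a gene was higher in ECsXAV cardiomyocytes. This scale understates the change of low genes. The criterion was an adjusted p under 0.05 by limma and a change of over 2-fold. For 1 gene in 2 against 2 libraries the smallest two-sided p of an exact permutation test is 0.333, and each adjusted p depends on a variance estimate that limma borrows from all genes. All cardiomyocyte markers were high in both groups. The summed FPKM of TNNT2, ACTN2, MYH6, NKX2-5, TNNI1 and RYR2 was 4101 to 4189 in ECsXAV and 5583 to 5797 in CPC cultures. Of these only MYH6 passed the criterion, at 855 and 857 FPKM in ECsXAV and 2070 and 1901 FPKM in CPC libraries. TNNT2 was also higher in both CPC libraries. ACTN2 went the other way, at 447 and 439 FPKM in ECsXAV and 345 and 370 FPKM in CPC libraries. TNNI1, NKX2-5 and RYR2 overlapped. Of the 6, 2 were thus higher in both CPC libraries, against 24.4% of all tested genes, and 1 in both ECsXAV libraries, against 25.4%. The pluripotency genes POU5F1, NANOG and DPPA4 were below 1 FPKM in all 4 libraries, with NANOG listed at 0.

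CTGF and ANKRD1 were 3.82-fold and 3.30-fold higher in mean FPKM in ECsXAV than in CPC cardiomyocytes, while the coactivators, the TEAD factors and the other targets differed by less than 2-fold. These 2 of the 10 genes passed the criterion, against 266 of the 12398 genes tested (2.15%). Both were higher in ECsXAV cardiomyocytes, the direction of 1.44% of tested genes, and none was higher in CPC cardiomyocytes, the direction of 0.71%. Of the 10 genes, 9 had a log2 change below 0, against 50.8% of all tested genes, and their median was -0.47 beside a median of -0.0045 over all tested genes. An unadjusted p under 0.05 from limma was reached by 5 of the 10 (CTGF, ANKRD1, CYR61, TEAD1 and TEAD4), against 18.2% of all genes. The libraries of the groups did not overlap for 8 genes that were higher in ECsXAV, against 25.4% of all genes, and for 1 that was higher in CPC, against 24.4%. The 10 genes were chosen with earlier results known and share regulators, so these counts describe them and are not a test of the pathway. The cultures were unsorted, so fewer cells of a type and less RNA per cell cannot be told apart in any of these values.

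**Figure D1:**
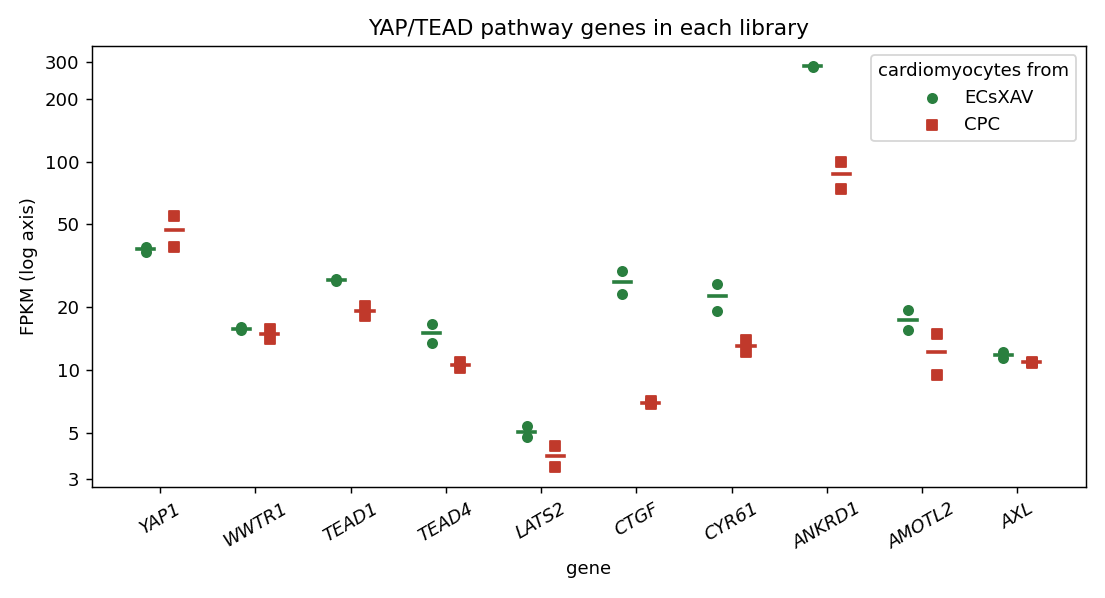
FPKM (log axis) of the 10 genes in each of the 4 libraries, with circles for ECsXAV, squares for CPC and a line at each group's mean (n = 2). ANKRD1 is the highest gene in both groups, and CTGF and ANKRD1 show the widest gaps between groups, while WWTR1 overlaps.

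Of the coactivators, YAP1, on chromosome 11 from 101981178 to 102104155 (GRCh37), stood at 39.1 and 36.8 FPKM in ECsXAV replicates 1 and 2 and at 55.0 and 39.1 FPKM in CPC replicates 1 and 2. The lower CPC library stood at nearly the level of the higher ECsXAV library, and CPC replicate 1 alone was high. The log2 change was 0.28 (SE 0.19, 95% interval -0.20 to 0.76, limma adjusted p = 0.491). Without CPC replicate 1 it was 0.043. WWTR1, which encodes TAZ, the paralog of YAP, on chromosome 3 from 149235022 to 149454501, stood at 16.1 and 15.5 FPKM in ECsXAV replicates 1 and 2 and at 15.7 and 14.0 FPKM in CPC replicates 1 and 2. These groups overlapped, with a log2 change of -0.08 (95% interval -0.37 to 0.21, limma adjusted p = 0.762). Both intervals lie within 2-fold. YAP1 made up 70.6% ± 0.39 (SD, n = 2) of the summed FPKM of YAP1 and WWTR1 in ECsXAV and 75.7% ± 2.96 (SD, n = 2) in CPC cardiomyocytes, so YAP1 was the more abundant coactivator RNA in all 4 libraries.

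The TEAD factors carry the DNA-binding domain of the complex. TEAD1, on chromosome 11 from 12695968 to 12966284, stood at 27.3 and 26.6 FPKM in ECsXAV replicates 1 and 2 and at 20.4 and 18.2 FPKM in CPC replicates 1 and 2. TEAD4, on chromosome 12 from 3068496 to 3149842, stood at 13.5 and 16.7 FPKM in ECsXAV replicates 1 and 2 and at 10.3 and 10.9 FPKM in CPC replicates 1 and 2. For both genes the ECsXAV libraries were above the CPC libraries, and neither difference passed the criterion. The log2 change was -0.46 for TEAD1 (SE 0.11, 95% interval -0.75 to -0.18, limma adjusted p = 0.121) and -0.47 for TEAD4 (SE 0.14, 95% interval -0.83 to -0.11, limma adjusted p = 0.174). The paralogs TEAD2 and TEAD3 were expressed too. TEAD3 stood at 40.4 and 44.7 FPKM in ECsXAV and at 34.5 and 40.5 FPKM in CPC libraries and TEAD2 stood at 18.0 and 20.6 FPKM in ECsXAV and at 23.1 and 19.8 FPKM in CPC libraries, with log2 changes of -0.18 and 0.15. TEAD3 was thus the most abundant TEAD RNA in every library, with 41.0% ± 0.32 of the summed FPKM of the 4 TEAD genes in ECsXAV and 42.2% ± 4.43 in CPC cardiomyocytes (SD, n = 2 each). The share of TEAD1 was 26.01% ± 2.14 against 21.7% ± 1.96 and that of TEAD4 14.5% ± 1.23 against 11.9% ± 0.38. The summed FPKM of the 4 genes ran from 99.1 to 108.5 in ECsXAV and from 88.2 to 89.3 in CPC libraries.

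LATS2, the kinase that restrains YAP and is itself a target of it, on chromosome 13 from 21547175 to 21635725, was the lowest of the 10 genes in both groups. It stood at 4.76 and 5.35 FPKM in ECsXAV replicates 1 and 2 and at 4.31 and 3.43 FPKM in CPC replicates 1 and 2. The groups did not overlap but lay close together, with a log2 change of -0.32 (SE 0.15, 95% interval -0.70 to 0.061, limma adjusted p = 0.345). Its paralog LATS1 stood at 4.50 and 3.90 FPKM in ECsXAV and at 4.35 and 3.31 FPKM in CPC libraries, so the kinases were at similar levels, with 54.6% ± 4.53 of their sum from LATS2 in ECsXAV and 50.3% ± 0.79 in CPC cardiomyocytes (SD, n = 2 each).

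The 5 targets differed in the size of their changes. CTGF (CCN2), a secreted matricellular protein of the CCN family that is widely used as a readout of YAP, lies on chromosome 6 from 132269316 to 132272512. It stood at 23.2 and 29.9 FPKM in ECsXAV replicates 1 and 2 and at 6.83 and 7.09 FPKM in CPC replicates 1 and 2. The CPC libraries were nearly equal, and the gap between the groups was wider than the gap between the ECsXAV libraries. The log2 change was -1.78 (SE 0.15, 95% interval -2.18 to -1.39, limma adjusted p = 0.0163). The direction held with each library left out, at -1.96 to -1.61, but with 3 libraries CTGF passed only without ECsXAV replicate 1 (limma adjusted p = 0.0115). The adjusted p was 0.0545 without ECsXAV replicate 2, 0.102 without CPC replicate 1, 0.101 without CPC replicate 2 and, with all libraries but no filter on low FPKM, 0.0618.

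CYR61 (CCN1), the other CCN family member among the 10, on chromosome 1 from 86046444 to 86050272, stood at 19.3 and 25.9 FPKM in ECsXAV replicates 1 and 2 and at 13.9 and 12.2 FPKM in CPC replicates 1 and 2. The groups did not overlap, and ECsXAV replicate 2 was the highest for CYR61 as for CTGF. The log2 change of -0.74 (SE 0.17, 95% interval -1.19 to -0.29, limma adjusted p = 0.117) did not pass. The ratio of CTGF to CYR61 FPKM was 1.21 and 1.15 in the ECsXAV libraries and 0.491 and 0.583 in the CPC libraries. CTGF was therefore above CYR61 in both ECsXAV libraries and below it in both CPC libraries, a difference larger than the spread between replicates that an exact test on 2 against 2 libraries cannot bring below a p of 0.333. The other CCN genes were low throughout, with WISP1 at 0.425 and 0.557 FPKM in ECsXAV and 0.0245 and 0.0375 FPKM in CPC libraries, NOV and WISP3 at or below 0.131 FPKM, and WISP2 listed at 0 in all 4.

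ANKRD1, the cardiac ankyrin repeat protein, which binds titin in the sarcomere and also acts in the nucleus, lies on chromosome 10 from 92671853 to 92680844. It was the most abundant of the 10 genes, at 288 and 285 FPKM in ECsXAV replicates 1 and 2 and at 73.6 and 100.2 FPKM in CPC replicates 1 and 2. The ECsXAV libraries were nearly equal, and both CPC libraries were far below them. The log2 change was -1.73 (SE 0.18, 95% interval -2.19 to -1.27, limma adjusted p = 0.0239). With 1 library left out the value ran from -1.95 to -1.51, and ANKRD1 passed only without CPC replicate 2 (limma adjusted p = 0.0354), against 0.0619 without ECsXAV replicate 1, 0.103 without ECsXAV replicate 2 and 0.0637 without CPC replicate 1. With no filter on low FPKM its limma adjusted p was 0.0735. Its muscle ankyrin repeat relatives were low, ANKRD23 at 0.854 to 1.63 FPKM and ANKRD2 at or below 0.0492 FPKM.

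AMOTL2, an angiomotin-like scaffold protein that holds YAP at cell junctions and is induced by it, on chromosome 3 from 134074189 to 134094321, stood at 15.6 and 19.3 FPKM in ECsXAV replicates 1 and 2 and at 9.48 and 14.9 FPKM in CPC replicates 1 and 2. The higher CPC library lay just under the lower ECsXAV library, and the log2 change of -0.51 (SE 0.24, 95% interval -1.12 to 0.11, limma adjusted p = 0.355) leaves room for no change and for a change of over 2-fold. AMOTL2 held 67.4% ± 4.597 of the summed FPKM of the 3 angiomotin genes in ECsXAV and 59.4% ± 10.99 in CPC cardiomyocytes (SD, n = 2 each). AXL, a receptor tyrosine kinase for the ligand GAS6, on chromosome 19 from 41725128 to 41767671, stood at 11.4 and 12.2 FPKM in ECsXAV replicates 1 and 2 and at 10.96 and 10.8 FPKM in CPC replicates 1 and 2. The log2 change was -0.10 (SE 0.11, 95% interval -0.38 to 0.17, limma adjusted p = 0.670), an interval within 2-fold. AXL was the most abundant of the TAM receptor RNAs, at 60.6% ± 0.75 and 61.2% ± 1.20 of the summed FPKM of AXL, TYRO3 and MERTK in ECsXAV and CPC cardiomyocytes (SD, n = 2 each). Its ligand GAS6 stood at 53.5 and 54.9 FPKM in ECsXAV and at 26.8 and 29.4 FPKM in CPC libraries, a log2 change of -0.92 (limma adjusted p = 0.0311) that is under 2-fold and so did not meet the criterion. PROS1, a second ligand of the TAM receptors, was at 23.7 and 23.6 FPKM in ECsXAV and 16.6 and 15.7 FPKM in CPC libraries (limma adjusted p = 0.079). The receptors TYRO3 and MERTK stayed between 3.22 and 4.47 FPKM. Of the 4 genes GAS6, PROS1, TYRO3 and MERTK, 2 had an unadjusted p under 0.05 from limma, against 18.2% of all tested genes.

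**Figure D2:**
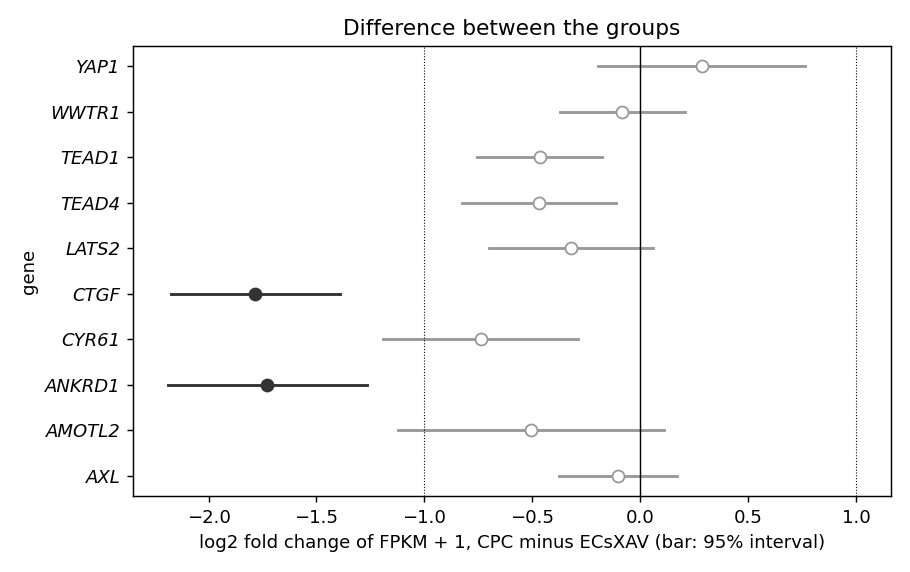
Log2 fold change of FPKM + 1 (CPC minus ECsXAV) of the 10 genes with its 95% interval from limma, filled where the criterion was passed, and dotted lines at a 2-fold change. CTGF at -1.78 and ANKRD1 at -1.73 lie beyond the 2-fold line with their whole intervals, and the interval of AXL, from -0.38 to 0.17, spans 0.

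Ordered by mean FPKM, the ECsXAV cultures had ANKRD1 first at 287, then YAP1 at 37.9, TEAD1 at 26.9, CTGF at 26.6, CYR61 at 22.6, AMOTL2 at 17.5, WWTR1 at 15.8, TEAD4 at 15.1, AXL at 11.8 and LATS2 at 5.06. Neighbours from TEAD1 down to TEAD4 in this order overlapped in their libraries and so did not differ beyond their spread. In the CPC cultures the order was ANKRD1 at 86.9, YAP1 at 47.0, TEAD1 at 19.3, WWTR1 at 14.9, CYR61 at 13.0, AMOTL2 at 12.2, AXL at 10.9, TEAD4 at 10.6, CTGF at 6.96 and LATS2 at 3.87, with overlaps between neighbours from CYR61 to TEAD4. CTGF thus stood level with TEAD1 in ECsXAV cardiomyocytes and below every member but LATS2 in CPC cardiomyocytes.

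Summed marker levels of several other cell types were higher in ECsXAV cultures, as CTGF and ANKRD1 were, while single markers of some of these lists went the other way. Of 8 stromal markers, 6 were higher in both ECsXAV libraries than in both CPC libraries. Among the 6 stromal markers that were tested this held for 4, against 25.4% of all tested genes. POSTN was higher in both CPC libraries, and PDGFRA overlapped. The summed FPKM of the 8 was 191 to 226 in ECsXAV and 105 to 107 in CPC libraries, with the defining genes DCN and TCF21 below 1 FPKM in all 4. The stromal genes COL1A1, COL3A1 and LUM passed the criterion, 3 of the 6 tested, against 1.44% of all tested genes in that direction. The smooth muscle markers ACTA2, TAGLN, CNN1 and MYH11 summed to 261 to 291 FPKM in ECsXAV and 136 to 162 FPKM in CPC libraries. TAGLN and CNN1 were lower in both CPC libraries and ACTA2 overlapped, so this held for 2 of the 3 tested, against 25.4% of all tested genes. MYH11, the defining myosin, was higher in CPC, at 0.351 and 0.433 FPKM against 0.0844 and 0.154 FPKM, and below 1 FPKM in all 4 libraries. The hepatic and endoderm markers summed to 35.6 to 41.3 FPKM against 18.9 to 21.0 FPKM, with ALB and FOXA2 below 1 FPKM throughout. Of the 6, 5 were lower in both CPC libraries, among them all 4 that were tested, against 25.4% of all tested genes. AFP and TTR passed the criterion, with log2 changes of -3.31 and -1.94 (limma adjusted p = 0.00308 and 0.0358). These were 2 of the 4 tested, against 1.44% of all tested genes in that direction. AFP stood at 11.4 and 9.70 FPKM in ECsXAV and at 0.199 and 0.124 FPKM in CPC libraries. APOA1, the most abundant of the 6, had a log2 change of -0.18. The endothelial markers summed to 10.5 to 12.0 FPKM against 10.1 to 12.5 FPKM, mostly from KDR, which overlapped. Of the 7 endothelial markers CDH5, TEK and VWF were lower in both CPC libraries and none was higher in both, with CDH5 at 1.19 and 1.49 FPKM in ECsXAV and 0.875 and 0.649 FPKM in CPC libraries. Only KDR and CDH5 were tested, so this held for 1 of 2 tested markers, against 25.4% of all tested genes. VWF was at or below 0.0209 FPKM in all 4 libraries. PECAM1, TEK, TIE1, ERG and VWF were below 1 FPKM. The epicardial markers summed to 1.65 to 1.78 FPKM against 0.677 to 0.845 FPKM, mostly from TBX18, while ALDH1A2 was higher in CPC, at 0.207 to 0.294 FPKM against 0.0451 to 0.06 FPKM in ECsXAV libraries. WT1, UPK3B and ALDH1A2 were below 1 FPKM in all 4 libraries. The primitive blood markers summed to 2.73 to 5.01 FPKM against 0.184 to 0.338 FPKM. The skeletal muscle markers went the other way, from 2.41 to 2.72 FPKM in ECsXAV to 18.2 to 24.4 FPKM in CPC libraries, nearly all from STAC3. STAC3 passed the criterion, higher in CPC, with a log2 change of 2.81 (limma adjusted p = 0.00807). It was the only tested marker of this list, and 0.71% of all tested genes passed in that direction. MYOD1, MYOG, MYF5 and MYH3 were below 1 FPKM. The part of these cells in the levels of CTGF, ANKRD1 and CYR61 was not tested.

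Other genes of the pathway and of related lists were read beside the 10. Of 71 further genes found in the table, 56 reached a mean of 1 FPKM, and 2 of these passed, CCDC80 higher in CPC and TAGLN higher in ECsXAV cardiomyocytes, against 2.15% of all tested genes. The median log2 change of the 56 was -0.12, with 34 below and 22 above 0, against 50.8% of all tested genes below 0. An unadjusted p under 0.05 from limma was reached by 17 of the 56, against 18.2% of all tested genes. Among 16 further genes of a list of known YAP targets, 11 were tested and 1 passed. CCDC80, a secreted matrix-binding protein, stood at 9.15 and 8.73 FPKM in ECsXAV replicates 1 and 2 and at 21.1 and 20.1 FPKM in CPC replicates 1 and 2, a log2 change of 1.12 (SE 0.10, limma adjusted p = 0.0195) and thus opposite to CTGF. Without any 1 of the 4 libraries it did not pass, with adjusted p from limma of 0.0794 and 0.125 without ECsXAV replicates 1 and 2 and of 0.0875 and 0.0784 without CPC replicates 1 and 2, and of 0.0570 with no filter on low FPKM. TGFB2, a growth factor, stood at 38.3 and 32.7 FPKM in ECsXAV and at 85.8 and 63.0 FPKM in CPC libraries, a log2 change of 1.03 (limma adjusted p = 0.0699) that did not pass. GADD45A, a stress-induced growth arrest gene, stood at 42.2 and 40.6 FPKM in ECsXAV and at 21.2 and 23.2 FPKM in CPC libraries, a log2 change of -0.87 (limma adjusted p = 0.0345) just short of 2-fold. IGFBP3, which binds insulin-like growth factors, stood at 11.8 and 13.6 FPKM in ECsXAV and at 6.86 and 7.16 FPKM in CPC libraries, a log2 change of -0.77 (limma adjusted p = 0.0529). The 11 tested targets of this list ran from -0.87 to 1.12 with a median of -0.27, so known YAP targets lay on both sides of 0. Of the 11, 6 had an unadjusted p under 0.05 from limma, against 18.2% of all tested genes.

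None of the 13 tested Hippo kinases and scaffolds passed, with log2 changes from -0.49 to 0.21 and a median of -0.12. Of the 13, 2 had an unadjusted p under 0.05 from limma, near the share of 18.2% over all tested genes. The most abundant was MAP4K4, a kinase upstream of LATS, with 39.4 and 41.1 FPKM in ECsXAV and 29.8 and 28.7 FPKM in CPC replicates, a log2 change of -0.45 (limma adjusted p = 0.109). The LATS cofactors MOB1A and MOB1B had log2 changes of -0.25 and -0.12. Of 14 tested upstream regulators none passed either, and 3 had an unadjusted p under 0.05 from limma, again near that share. AJUBA, a LIM protein that inhibits LATS, had the largest log2 change of them at -0.65 (limma adjusted p = 0.0598) with 15.1 and 15.8 FPKM against 9.03 and 9.90 FPKM. LIMD1, a related LIM protein, and LLGL1, a polarity protein, had log2 changes of -0.13 and -0.07. Of the list that holds the paralogs TEAD2 and TEAD3 and the 4 VGLL cofactor genes, TEAD2, TEAD3 and VGLL4 were tested, and none of them passed or had an unadjusted p under 0.05 from limma. VGLL4, which competes with YAP for TEAD, stood at 21.9 and 22.8 FPKM in ECsXAV and at 25.1 and 25.3 FPKM in CPC libraries, a log2 change of 0.17, and VGLL1, VGLL2 and VGLL3 were at or below 0.0887 FPKM.

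CTGF, CYR61 and ANKRD1 are also known as targets of serum response factor and its MRTF coactivators, so the genes of that list were read beside them. Of 11 tested, TAGLN passed, an actin-binding protein of smooth muscle that is also in the smooth muscle list, at 116 and 108 FPKM in ECsXAV replicates 1 and 2 and at 15.8 and 22.6 FPKM in CPC replicates 1 and 2. Its log2 change was -2.51 (SE 0.19, limma adjusted p = 0.0127), and it passed without each library in turn but not with the filter on low FPKM removed (limma adjusted p = 0.0570). The other 10 ran from -0.84 for CNN1 to 0.58 for SRF itself, and 7 of the 11 were above 0, so members of the list lay on both sides of 0. Of the 11, 5 had an unadjusted p under 0.05 from limma, against 18.2% of all tested genes.

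**Figure D3:**
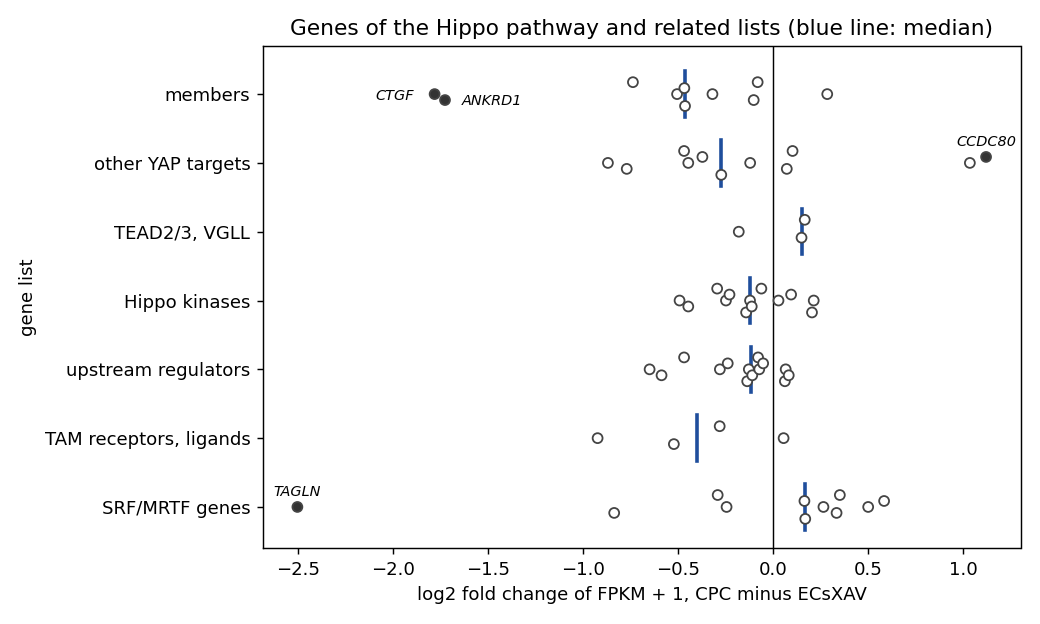
Log2 fold change of FPKM + 1 (CPC minus ECsXAV) of each tested gene in the 10 members and in 6 related lists, 1 circle a gene, filled where the criterion was passed, with the list's median as a blue line (vertical offsets only separate the circles). Filled circles are CTGF, ANKRD1, CCDC80 and TAGLN, and the kinases lie between -0.49 and 0.21.

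The transcript table showed which RNA carried each gene. CTGF, CYR61, ANKRD1, AMOTL2, LATS2 and TEAD1 have 1 transcript each there, so their values are those of the gene. For YAP1, NM_001195045 had 45.7% and 42.3% of the gene's FPKM in the ECsXAV replicates and 63.8% and 54.2% in the CPC replicates, and was the only one of the 4 transcripts with groups apart in that way. NM_001195044 had 54.3% and 35.3% against 30.2% and 45.7%, which overlapped. NM_006106 had 0.0138% and 22.4% in the ECsXAV replicates and 6.07% and 0.0786% in the CPC replicates, so that each group held 1 library near 0 and 1 well above it. These shares are estimates by Cufflinks from shared exons, and for YAP1 they varied widely between replicates. WWTR1 came mainly from NM_001168280, with 90.9% and 73.0% against 73.2% and 78.6%, and TEAD4 mainly from NM_003213, with 74.7% and 82.3% against 86.3% and 76.0%. AXL was split between NM_001699, at 45.7% and 60.9% against 55.9% and 59.8%, and NM_021913. In WWTR1, TEAD4 and AXL the shares of the main transcript overlapped between the groups.

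**Figure D4:**
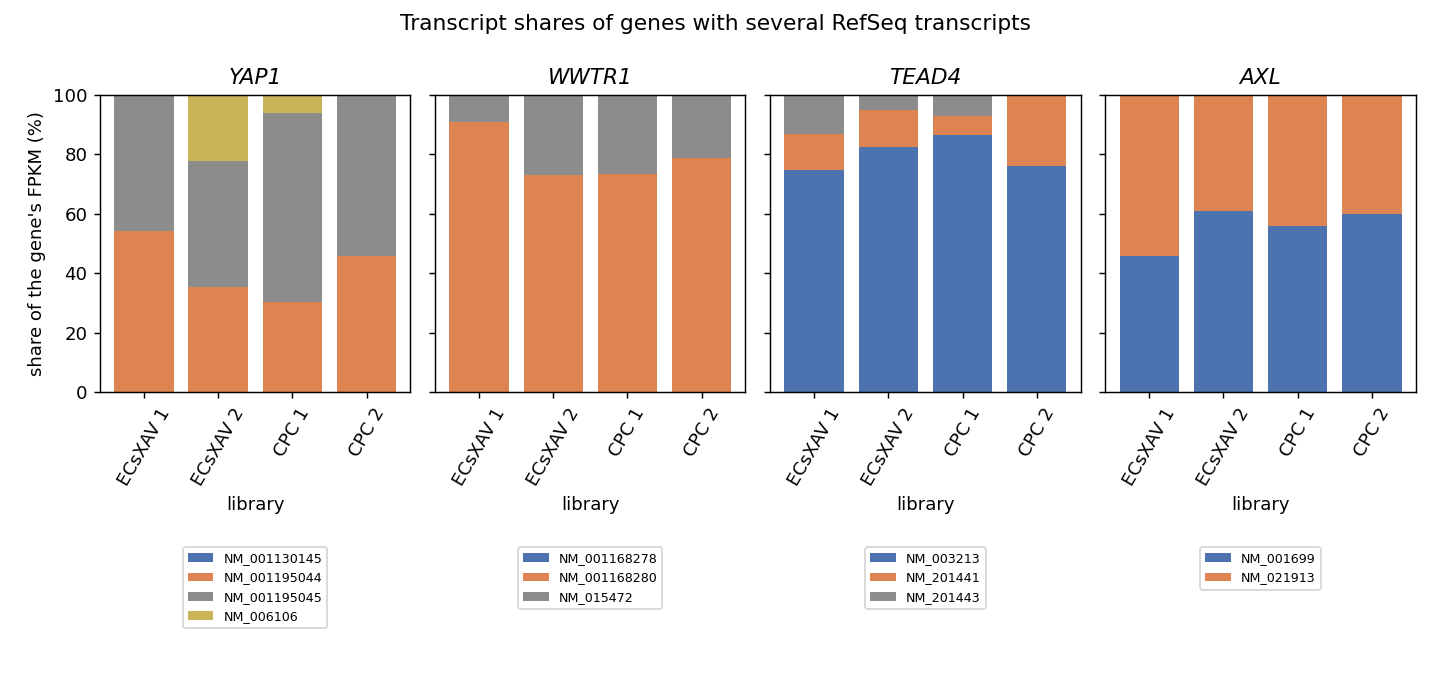
Share in percent of each RefSeq transcript in the summed FPKM of YAP1, WWTR1, TEAD4 and AXL, 1 stacked bar a library. NM_006106 of YAP1 appears in ECsXAV replicate 2 and CPC replicate 1 and is near 0 in the other libraries.

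For the members with the largest changes, the genes with the nearest profile over the 4 libraries were listed by the Euclidean distance of log2(FPKM + 1) after centring, among 12088 tested genes without short RNA. Nearest to CTGF were DLK1 (distance 0.215), LAMB1 (0.243) and RARRES2 (0.2497), and nearest to ANKRD1 were CLU (0.0603), PTTG1 (0.164) and HSPB6 (0.169). CTGF and ANKRD1 were 0.384 apart. DLK1 stood at 2.73 and 4.67 FPKM in ECsXAV and at 0.2997 and 0.489 FPKM in CPC libraries, and CLU stood at 9.56 and 9.96 FPKM in ECsXAV and at 1.75 and 2.67 FPKM in CPC libraries. The profile has 4 points in 2 groups, so nearness here describes a similar gap between the groups and similar gaps between replicates.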

How the data were processed

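RNA-seq of 4 libraries was analysed, 2 biological replicates each of day 14 cardiomyocytes from CPCs and from XAV-treated ECs. Libraries were poly-A enriched from unsorted cells. The deposited FPKM were computed by the authors with Cufflinks version 2.1.1 on UCSC gene annotations (hg19). The submitters' processing notes also name TopHat 1.3.3. How reads with several alignments entered the FPKM is not given in the sources used here. Groups came from the sample labels. No column was left unmatched.

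For symbols with several loci, which the gene table repeats, the entry with the highest mean was used, and each of the 10 genes has 1 row. limma 3.58.1 in R 4.3.3 was fitted to log2(FPKM + 1), with an intensity trend and without a block, over 12398 genes whose mean FPKM reached 1, with Benjamini-Hochberg adjustment over all of them. On simulated data for 12397 genes with 200 changed, 92.5% of these were recovered. The simulated log2 changes were larger than those of CTGF and ANKRD1 and were given only to genes with a mean of at least 5 FPKM. This share therefore does not give the recovery of smaller changes or of lower genes. The replicates are described as biological. The genes and lists were chosen with earlier results of these data known. Named were the 10 genes, list genes past the criterion or otherwise the 3 most abundant of a list, paralogs, and for the 2 genes with the largest changes the 3 nearest profiles. TGFB2, GADD45A, IGFBP3, SRF, CNN1 and marker genes short of the criterion were named after their values were seen. Gene coordinates came from GENCODE release 44 on GRCh37. Python 3.11.15, pandas 2.3.3 and matplotlib 3.10.9 were used for tables and plots. Alternatives were another pseudocount, other filters on low values, 2 scalings, no trend, a replicate block, short RNA left out, summed isoforms or loci, no fold limit, and each library left out.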

Additional observations from a re-analysis of the deposited data

How the results depend on the processing

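Without the filter on low FPKM, 18772 genes were tested of which 20 met the criterion (12 toward CPC cardiomyocytes). None of the 10 members or of the further genes of the pathway and related lists did. At an unadjusted p under 0.05 from limma, 5 members and 19 of the 69 further genes of these lists tested there were counted. The limma adjusted p was 0.0618 for CTGF and 0.0735 for ANKRD1. A minimum mean FPKM of 5 left 152 genes past the criterion, CTGF and ANKRD1 among them (limma adjusted p = 0.0122 and 0.0254). LATS2 was below that filter. With 1 library left out, 59 (without CPC replicate 1) to 159 (without ECsXAV replicate 1) genes, 0 to 1 members and 1 pathway gene passed. In such a fit 1 group holds 1 library, which is assumed to vary like the other group, and 2 to 5 members had an unadjusted p under 0.05 from limma. Over all 15 alternatives CTGF ran from -1.96 to -1.61 (adjusted p from 9.4e-05 to 0.102) and ANKRD1 from -1.95 to -1.51 (adjusted p from 1.5e-04 to 0.103). None of the 10 log2 fold changes changed sign, and the other 8 genes met both parts of the criterion under none.

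Same-numbered libraries deviated together by rank (Spearman's rho 0.356 across 12398 genes, Pearson's r 0.035), but no source says that the number marks a shared culture. A replicate block left 176 genes past the criterion, with CTGF (limma adjusted p = 0.0324) and ANKRD1 (limma adjusted p = 0.0430) among them, and added TGFB2 (limma adjusted p = 0.0462). Leaving out short RNA gave 339 genes, and doing so under the block gave 346, which was tried after the data had been seen. TGFB2 passed in both. CTGF and ANKRD1 also passed with a pseudocount of 0.1, after median-of-ratios scaling or quantile normalization, without a trend, and with summed isoforms or loci. With no fold limit on the reported fit 358 genes passed, of the members again 2. All under 2-fold, CYR61 had a limma adjusted p of 0.0288 with short RNA left out, and with the block as well CYR61 (0.0117), TEAD1 (0.0179), AMOTL2 (0.0243) and TEAD4 (0.0287) were under 0.05. Fewer libraries enter each fit that leaves 1 out, and for the other settings the cause was not tested.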
